A study of Mus musculus with 24 samples.

Results

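The C1q/TNF-related genes of the mouse maternal-fetal interface (MFI) were followed through gestation with and without *C1qtnf6*. The 8 genes *C1qtnf1*, *C1qtnf2*, *C1qtnf3*, *C1qtnf4*, *C1qtnf5*, *C1qtnf6*, *C1qtnf7* and *C1qtnf12* were taken by name from a table of 55401 genes, and 7 of them had at least 1 count in some library. Bulk polyA RNA-seq was made of MFI tissue, which holds maternal decidua and fetal placenta, from wild-type (WT) mice and from homozygous *C1qtnf6*-knockout (C1qtnf6-KO, here KO) mice on the C57BL/6 background. The KO carried a CRISPR-Cas9 deletion of 3 exons in all tissues, maternal and fetal alike. Each genotype was sampled on gestation days (gd) gd10.5, gd14.5, gd16.5 and finally gd19.5 with 3 libraries per group, 24 libraries in all. The labels name no dam or litter, so the p-values measure the spread between these libraries, which may be technical.

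The family encodes secreted proteins, the CTRPs, with a collagen-like stalk and a globular C1q-like head, and they are relatives of the adipocyte hormone adiponectin. They assemble as trimers, and many were first described as hormones of adipose tissue, muscle or the vessel wall that act on metabolism and inflammation. CTRP6, the product of *C1qtnf6*, is made by trophoblast in the placenta and is also known to restrain the alternative pathway of complement. The question put to the paralogs was whether any of them is expressed more where *C1qtnf6* is missing.

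The sequence upstream of the start is shown for the deleted gene and for both paralogs with the largest rises through gestation in WT. The sequences are those of RefSeq on GRCm38.p6, read 5′ to 3′ on the strand of the gene. Those of *C1qtnf6* and *C1qtnf3* end at the base before the RefSeq start. That of *C1qtnf7* ends at the base before the start of the gene in the deposited table, short of the RefSeq start. Capitals mark matches, on either strand, to 5 short motifs, namely the TATA box TATAAA, the GC box GGGCGG, the CCAAT box CCAAT, the AP-1 motif TGANTCA and the GATA motif GATAA.
*C1qtnf6*, chr15:78529652-78529901, minus strand: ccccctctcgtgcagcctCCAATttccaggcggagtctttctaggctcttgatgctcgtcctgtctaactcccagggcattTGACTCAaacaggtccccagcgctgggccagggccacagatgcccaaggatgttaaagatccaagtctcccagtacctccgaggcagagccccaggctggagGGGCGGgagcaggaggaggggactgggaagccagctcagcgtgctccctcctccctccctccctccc
*C1qtnf3*, chr15:10952082-10952331, plus strand: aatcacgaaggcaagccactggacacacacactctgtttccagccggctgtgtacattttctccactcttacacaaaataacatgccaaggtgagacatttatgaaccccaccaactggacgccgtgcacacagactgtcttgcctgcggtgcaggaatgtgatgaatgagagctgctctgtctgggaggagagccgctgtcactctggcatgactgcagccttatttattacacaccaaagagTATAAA
*C1qtnf7*, chr5:43515319-43515537, plus strand: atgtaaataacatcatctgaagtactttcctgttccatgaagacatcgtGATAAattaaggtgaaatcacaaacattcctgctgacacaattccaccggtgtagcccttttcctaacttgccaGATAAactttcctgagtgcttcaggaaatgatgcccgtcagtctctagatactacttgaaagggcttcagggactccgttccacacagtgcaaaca

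The window of *C1qtnf6* was the richest in G and C, with 62.8% against 49.2% for *C1qtnf3* and 42.5% for *C1qtnf7*. It held a GC box that begins 67 bases before the start, a palindromic AP-1 motif at 169 bases and a CCAAT box at 232 bases. The RefSeq start lies inside the span of *C1qtnf6* in the deposited table, where none of the window is exon (0 bases). The window of *C1qtnf3* ended in a TATA box, 6 bases before the start, and that of *C1qtnf7* held GATA motifs at 201 and 127 bases. These *C1qtnf7* positions count from the RefSeq start, which lies beyond the end of the printed sequence. Of 32851 mouse promoter windows of up to 250 bases, 12.4% held TATAAA, 32.7% GGGCGG, 33.8% CCAAT, 6.75% TGANTCA and 22.6% GATAA. These motifs do not overlap one another in the printed windows. A match is a description of the letters, and factor binding was not measured.

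Levels are given as CPM, the usual scaling of counts to the normalized size of the library. Levels of different genes are compared only as RPKM, which is CPM divided by the exon length in kilobases. Total counts per library ran from 20975717 to 37383108. The summed level of 5 yolk sac endoderm genes ran from 12 to 22300 CPM over the 24 libraries. It differed widely within some groups, from 12 to 3580 CPM in WT at gd10.5 and from 155 to 22300 CPM in KO at gd16.5. At gd14.5 and gd19.5 it stayed between 53.8 and 294 CPM. The tissue source of these transcripts was not tested. The summed level of 4 Y-linked genes ran from 0.0373 to 194 CPM, which follows the sex of the fetus as well as fetal content. The labels give no fetal sex. At gd16.5 the Y-linked sum was 194, 188 and 1.14 CPM in KO and 89.1, 0.663 and 0.486 CPM in WT. KO gd10.5 replicate 2 stood apart, with 13500 CPM for 7 spongiotrophoblast genes against 827 and 1030 CPM in the other KO libraries of that stage and 1420 to 2070 CPM in WT. Some results that use it are given with and without it, and the medians of gene lists only with it. Every gene of the giant cell, spongiotrophoblast and decidual stroma lists had counts in each group, while *Adipoq*, the defining adipocyte gene, had 0 to 4 counts per library. In bulk tissue, fewer cells of a type and less RNA per cell cannot be told apart.

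In WT the family was carried by *C1qtnf6* and *C1qtnf1*, and their order reversed after gd10.5. On the RPKM scale, the level at gd10.5 was 58.6 ± 3.42 (SD, n = 3) for *C1qtnf6* and 41.9 ± 6 for *C1qtnf1*. *C1qtnf12*, the hormone adipolin, followed at 5.31 ± 0.533 and *C1qtnf2* at 1.18 ± 0.129. *C1qtnf4*, *C1qtnf3* and *C1qtnf7* stood at 0.174 ± 0.0768, 0.0445 ± 0.0247 and 0.0242 ± 0.022, and the libraries of the last pair overlapped. At gd19.5 the order was *C1qtnf1* with 76.8 ± 1.58 RPKM, *C1qtnf6* with 24.8 ± 0.757, *C1qtnf12* with 5.08 ± 0.491 and *C1qtnf3* with 4.03 ± 0.284. Below them came *C1qtnf2* with 1.1 ± 0.24, *C1qtnf4* with 0.475 ± 0.18 and *C1qtnf7* with 0.402 ± 0.109 RPKM, of which the last pair again overlapped. *C1qtnf3* had thus passed *C1qtnf2* and *C1qtnf4* between the first stage and the last.

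**Figure D1:**
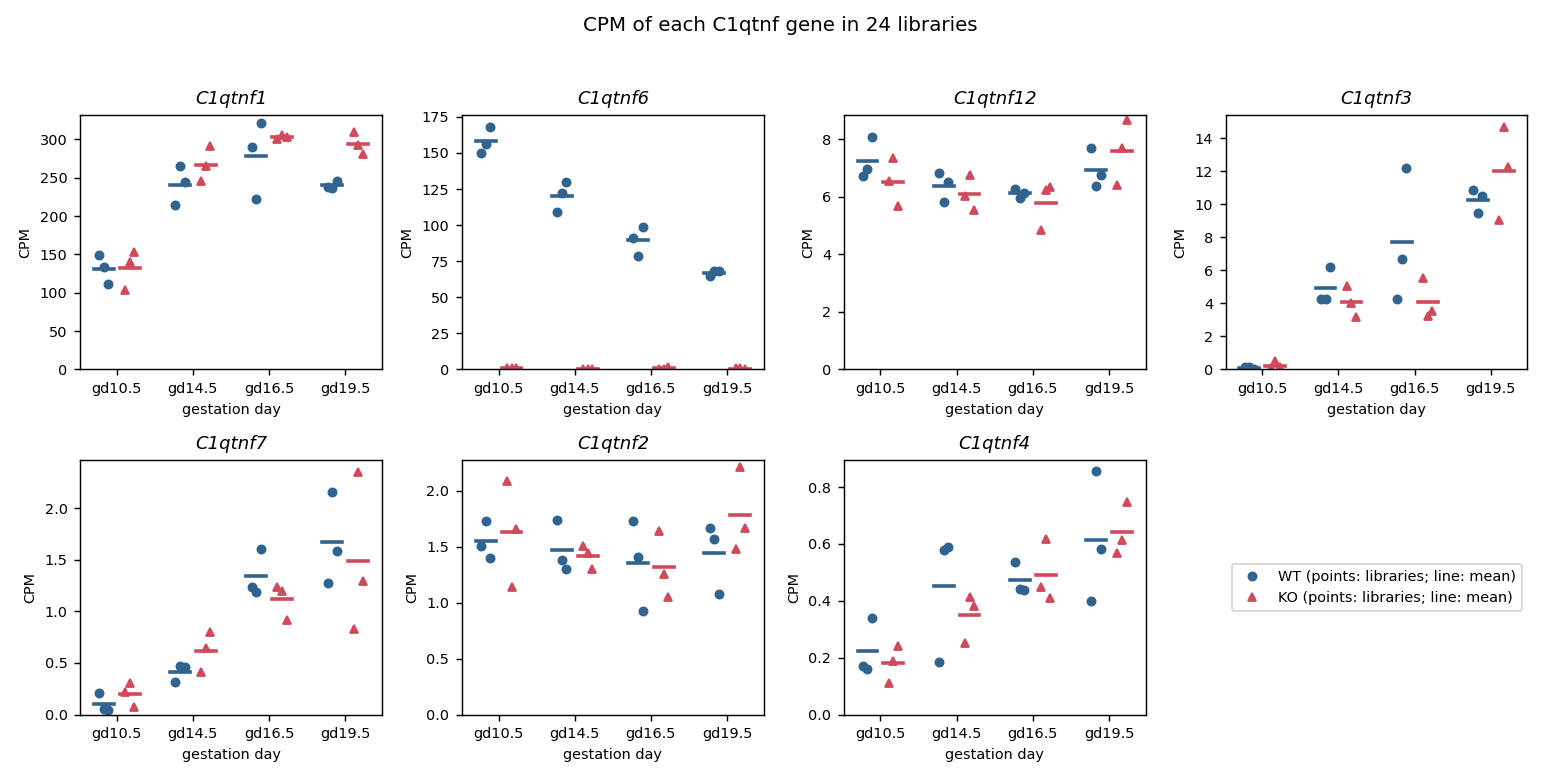
CPM, on a linear axis from 0 that differs between panels, against gestation day for the 7 members with counts, with 1 point per library (circles WT, triangles KO) and a short line at each group mean. *C1qtnf6* falls in WT from a mean of 158 to 67.1 CPM and lies at or below 2.05 CPM in every KO library, while *C1qtnf3* and *C1qtnf7* climb from about the detection limit of 3 counts in both genotypes and *C1qtnf2* and *C1qtnf12* stay level.

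Across the stages of WT, 4 of the 7 tested members changed, *C1qtnf1*, *C1qtnf3*, *C1qtnf6* and *C1qtnf7* (edgeR F test of any stage difference, Benjamini-Hochberg adjusted p of 6.28e-05, 5.87e-07, 3.8e-07 and 7.06e-06). Of all 18523 genes tested, 72.5% passed the same test, so a change with stage was the rule in this tissue and the share of members is near that background.

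*C1qtnf6* fell at each step of the WT course. Its level was 150, 156 and 168 CPM in the gd10.5 libraries, 109, 122 and 130 CPM at gd14.5, 91.1, 78.6 and 98.4 CPM at gd16.5, and then 64.7, 68.2 and 68.2 CPM at the last stage. No library of a stage reached the lowest library of the stage before it. The log2 fold change of *C1qtnf6* was -0.39 (SE 0.087, adjusted p = 0.00189) from gd10.5 to gd14.5, -0.42 (SE 0.0876, adjusted p = 0.0045) from gd14.5 to gd16.5 and -0.41 (SE 0.0883, adjusted p = 0.0152) from gd16.5 to gd19.5 by edgeR. In these steps 55.9%, 22.4% and 7.97% of all genes passed. From gd10.5 to gd19.5 *C1qtnf6* fell to 0.428 of its level (95% interval 0.375 to 0.489, adjusted p = 9.17e-08). The last step was not called without WT gd16.5 replicate 3 or without any 1 of the WT gd19.5 replicates 1, 2 and 3 (adjusted p = 0.0552, 0.0587, 0.0533 and 0.0528). In an edgeR fit of all 24 libraries together, KO included, none of the 3 single steps of *C1qtnf6* was called (adjusted p = 0.172, 0.247 and 0.357).

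*C1qtnf1*, whose product CTRP1 is made in the vessel wall and limits the binding of platelets to collagen, rose in the first step of the WT course. It had 149, 134 and 111 CPM at gd10.5 and 214, 265 and 244 CPM at gd14.5, with no overlap. This is a rise of 1.84-fold (95% interval 1.51 to 2.26, log2 fold change 0.88, SE 0.135, edgeR adjusted p = 0.000113). At gd16.5 *C1qtnf1* had 290, 222 and 321 CPM and at gd19.5 238, 237 and 246 CPM, and neither later step passed the test (adjusted p = 0.297 and 0.391). A noncoding gene on the opposite strand, *Gm11747*, shares 642 of the 3131 exonic bases of *C1qtnf1* and had at most 15 counts in a library. Counting ignored strand and left out reads that fall on more than 1 gene, so reads on those bases were lost to both genes. The RPKM of *C1qtnf1* still divides by all 3131 bases, which lowers it.

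*C1qtnf3*, which encodes CTRP3, also known as cartducin, a secreted factor of cartilage and fat, rose most. It had 4, 6 and 1 counts in the WT gd10.5 libraries, which is 0.138, 0.162 and 0.0423 CPM, near the detection limit of 3 counts. At gd14.5 the libraries had 4.26, 4.28 and 6.22 CPM, at gd16.5 4.3, 6.72 and 12.2 CPM, and in the last stage between 9.48 and 10.9 CPM. The gd10.5 libraries lay below all later ones, and the gd16.5 libraries spread across the levels of the stages on either side. The rise of *C1qtnf3* from gd10.5 to gd14.5 was 40.4-fold (95% interval 19.7 to 82.7, edgeR adjusted p = 1.31e-06) and from gd10.5 to gd19.5 85.6-fold (42.5 to 172, adjusted p = 9.23e-08). The step from gd14.5 to gd16.5 had an adjusted p of 0.137, which became 0.0216 without WT gd16.5 replicate 1 and 0.00754 with no expression filter.

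*C1qtnf7*, which encodes CTRP7, rose in the first and second steps. Its WT libraries had 6, 2 and 1 counts at gd10.5 (0.206, 0.054 and 0.0423 CPM), 0.316, 0.47 and 0.463 CPM at gd14.5, 1.24, 1.19 and 1.6 CPM at gd16.5, and then 1.27, 2.16 and 1.58 CPM at the last stage. Only gd16.5 and gd19.5 overlapped among neighbouring stages. The rises of *C1qtnf7* were 4.11-fold (95% interval 1.96 to 8.62, edgeR adjusted p = 0.00348) and 3.27-fold (1.95 to 5.5, adjusted p = 0.00383), and over the whole course 16.9-fold (8.87 to 32, adjusted p = 2.68e-06). Without WT gd10.5 replicate 1, which holds 6 of the 9 counts of that stage, the first step was a log2 fold change of 3.06 in place of 2.04 and the whole course 5.11 in place of 4.08.

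The summed level of 6 fibroblast genes was also higher at the later WT stages, going from 1620 to 2190 CPM at gd10.5 to 4250 to 5180 CPM at gd19.5, with 4 of 6 genes higher and 2 lower (median log2 fold change 0.40). That of 7 spongiotrophoblast and glycogen cell genes went from 1420 to 2070 CPM to 31000 to 38800 CPM, with 7 of 7 higher (median 3.45). The part of cell makeup in the rise of these paralogs was not tested.

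*C1qtnf4*, *C1qtnf2* and *C1qtnf12* did not pass the F test of a stage difference in WT (edgeR adjusted p = 0.0638, 0.922 and 0.263). *C1qtnf4*, which encodes a brain-enriched CTRP with more than 1 C1q head, had 0.224 ± 0.099 CPM (SD, n = 3) at gd10.5 and 0.613 ± 0.232 CPM at gd19.5, from 5 to 23 counts per library. Its libraries of these stages did not overlap, and the pairwise contrast passed at a log2 fold change of 1.54 (SE 0.481, adjusted p = 0.0131). That call on *C1qtnf4* was lost without WT gd10.5 replicate 2 (adjusted p = 0.0564) or WT gd19.5 replicate 2 (adjusted p = 0.0729). The F test of *C1qtnf4* passed in 5 of 18 alternatives, with an adjusted p from 0.0176 to 0.216 over them. These were all 24 libraries in the fit (0.0238), no expression filter (0.0294), and the fits without WT gd10.5 replicate 3 (0.0491), WT gd14.5 replicate 1 (0.0176) or WT gd19.5 replicate 1 (0.0451). *C1qtnf2* kept between 0.924 and 1.74 CPM and *C1qtnf12* between 5.83 and 8.07 CPM in all 12 WT libraries. The gd19.5 against gd10.5 log2 fold change was -0.09 for *C1qtnf2* (95% interval -0.62 to 0.44) and -0.05 for *C1qtnf12* (-0.30 to 0.21). With libraries scaled by their total count alone, the F test of *C1qtnf12* passed (adjusted p = 0.0222). That scaling shifts the median of all genes by -0.115, -0.149 and 0.080 (log2) in the 3 successive steps.

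*C1qtnf5*, a gene of the retinal pigment epithelium, had 0 counts in all 24 libraries, and this value carries no information on its expression. All 1589 of its exonic bases (chromosome 9, 44107245 to 44109187) lie within exons of *Mfrp* on the same strand, and reads that fall on more than 1 gene were left out of the counts. No exonic base was unique to it. *Mfrp* itself had 1 to 11 counts per library. Within the other members, no 100-base window of transcript of *C1qtnf2*, *C1qtnf3*, *C1qtnf4*, *C1qtnf7* or *C1qtnf12* was shared with another gene (0%). For *C1qtnf1* 17.6% of windows were shared, with *Gm11747*, and for *C1qtnf6* 0.767%, with *Gm49490*.

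The genotype comparison opened with the deleted gene. *C1qtnf6* had 1 to 45 counts in each of the 12 KO libraries against 1625 to 5799 in each of the 12 WT libraries. The fold against WT was 0.00579, 0.00344, 0.0114 and 0.00773 in order of stage, each called by edgeR (the largest adjusted p was 0.00975, at gd16.5), and counts per gene do not say which exons the residual reads came from. At gd16.5 KO replicate 3 held 45 counts and the other KO libraries 13 and 15. The adjusted p at that stage was 0.104, 0.121 and 0.177 without WT replicate 2, WT replicate 3 and KO replicate 1, with a log2 fold change of *C1qtnf6* between -7.37 and -6.02 over the 6 libraries left out in turn.

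No paralog passed the test in KO at any stage. The number tested was 3 at gd10.5, where *C1qtnf3*, *C1qtnf4* and *C1qtnf7* were under the expression filter, and 6 at each later stage, and 0 were called. Of all genes, 0.00572%, 0.0166%, 0.00586% and 0.115% passed at the successive stages, so few genes of any kind passed this edgeR test. The study, which used DESeq2 with a log2 fold limit of 1, reported many more genes at gd16.5. In an additive fit of all 4 stages, with stage as a covariate, *C1qtnf6* was 1 of 3 called genes among 19299 (0.0155%), and 0 of the 6 paralogs were called. The count of paralogs called stayed 0 at gd10.5, gd14.5, gd16.5 and in the additive fit under every alternative run.

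*C1qtnf1* at gd19.5 came nearest to a rise. The KO libraries had 310, 292 and 281 CPM and the WT libraries 238, 237 and 246 CPM, so all 3 KO libraries lay above all 3 WT libraries. Such an order was found for 12.8% of all genes at gd19.5. The mean was 294 CPM in KO and 241 CPM in WT (n = 3 each), a difference of 1.2-fold (95% interval 1.08 to 1.33, log2 fold change 0.26, SE 0.0658). The edgeR adjusted p of *C1qtnf1* was 0.178, which ran from 0.0212 to 0.656 over 15 alternatives and passed in 2 of them, DESeq2 on the same 6 libraries (0.0212) and no expression filter (0.0473). Markers of smooth muscle and of endothelium were also higher in KO, with overlapping sums and none called. The summed level of 6 smooth muscle genes was 545 to 658 CPM in WT and 589 to 780 CPM in KO at gd19.5, with 6 of 6 genes higher in KO (median log2 fold change 0.53), and that of 5 endothelial genes was 866 to 1010 and 937 to 1180 CPM, with 5 of 5 higher (median 0.27). Their part in the difference of *C1qtnf1* was not tested.

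The earlier stages gave smaller differences for *C1qtnf1*. The KO libraries had 104, 140 and 153 CPM at gd10.5, then 245, 265 and 291 CPM at gd14.5 and 301, 305 and 303 CPM at gd16.5. These overlapped the WT libraries at each stage, and the log2 fold changes were 0.02 (95% interval -0.42 to 0.45), 0.14 (-0.06 to 0.34) and 0.14 (-0.17 to 0.45). Every KO library stood above every WT library for 1.83%, 6.42% and 8.11% of all genes at these stages and for 0 paralogs. Over all stages *C1qtnf1* was 1.11-fold higher in KO, with a 95% interval from 1 to 1.22 (edgeR adjusted p = 0.759, between 0.323 and 1 over 34 alternatives). The genotype-by-stage interaction of *C1qtnf1* had an adjusted p of 0.896.

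*C1qtnf3* at gd16.5 had the largest difference in the other direction. The KO libraries had 5.57, 3.23 and 3.56 CPM and the WT libraries 4.3, 6.72 and 12.2 CPM, and KO replicate 1 lay within the range of WT. The log2 fold change of *C1qtnf3* was -0.90 (95% interval -1.80 to 0.00, edgeR adjusted p = 0.45), and -0.41 without WT replicate 3, the library at 12.2 CPM. The fibroblast sum at that stage was 2740 to 3370 CPM in KO and 3870 to 4040 CPM in WT, a part in the difference that was not tested. The other tested stages gave *C1qtnf3* values of -0.24 (-0.68 to 0.19) at gd14.5 and 0.20 (-0.16 to 0.57) at gd19.5. At gd10.5, where *C1qtnf3* was not tested, its KO libraries had 2, 13 and 4 counts and the WT libraries 4, 6 and 1, and the 13 counts were those of KO replicate 2, the library rich in spongiotrophoblast transcripts.

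*C1qtnf7* was highest against WT at gd14.5, with 0.409, 0.644 and 0.804 CPM in KO and 0.316, 0.47 and 0.463 CPM in WT, which overlap. The log2 fold change of *C1qtnf7* was 0.57 (95% interval -0.16 to 1.30, edgeR adjusted p = 0.776), and the later stages gave -0.25 and -0.17. *C1qtnf12* stayed between -0.15 and 0.11 at the 4 stages and *C1qtnf2* between -0.07 and 0.29. *C1qtnf4*, at 3 to 22 counts per KO library, lay between -0.31 and 0.09 in the 3 stages tested.

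In the additive fit, which assumes 1 effect at all stages, the upper end of the 95% interval of the KO effect was 1.07-fold for *C1qtnf12*, 1.16-fold for *C1qtnf3*, 1.22-fold for *C1qtnf1*, 1.24-fold for *C1qtnf4*, 1.25-fold for *C1qtnf2* and 1.48-fold for *C1qtnf7*. The lower ends were 0.882, 0.634, 1, 0.713, 0.88 and 0.785. The intervals of single stages reached higher, up to 1.37-fold for *C1qtnf1* at gd10.5, 1.33-fold for *C1qtnf1* at gd19.5 and 2.46-fold for *C1qtnf7* at gd14.5. The genotype-by-stage interaction was called for 0 of 7 members and 0 of 19299 genes (0%), of which 1396 had an unadjusted p under 0.05 by edgeR. 

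**Figure D2:**
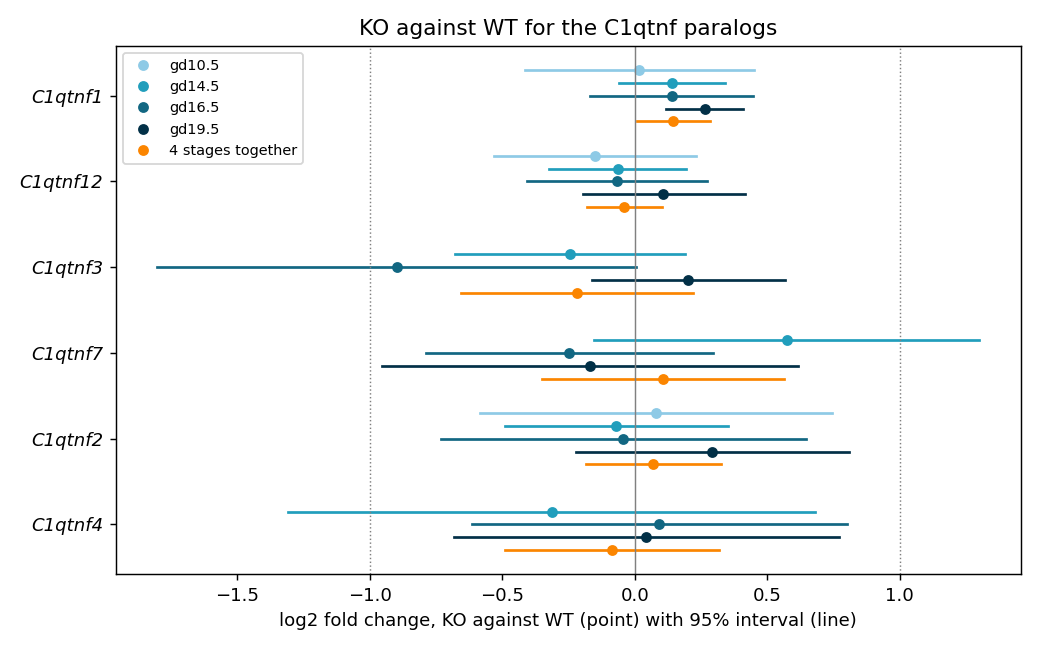
Log2 fold change of KO against WT on the horizontal axis for the 6 paralogs with counts, with a point for each tested stage and for the fit of 4 stages together, and lines for the 95% intervals. All but 2 of the intervals cross 0, those of *C1qtnf1* at gd19.5 (0.12 to 0.41) and over 4 stages (0.01 to 0.28), and neither passed after adjustment over all genes.

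The stage course of the paralogs was also present in the KO libraries. In KO 65.1% of 18467 genes changed with stage, and so did *C1qtnf1*, *C1qtnf3*, *C1qtnf4* and *C1qtnf7* (edgeR F test, adjusted p = 5.55e-05, 1.72e-05, 0.00387 and 0.00202). From gd10.5 to gd19.5 *C1qtnf1* rose 2.21-fold in KO (95% interval 1.82 to 2.68) and 1.85-fold in WT (1.51 to 2.27). *C1qtnf3* rose 51.5-fold in KO (25.1 to 106) and *C1qtnf7* 7.65-fold (1.83 to 4.04 on the log2 scale). Without KO gd10.5 replicate 2 the log2 fold change of *C1qtnf3* was 6.80 in place of 5.69 and that of *C1qtnf7* 3.39 in place of 2.94, beside 6.42 and 4.08 in WT, the latter 5.11 without WT gd10.5 replicate 1. *C1qtnf4* rose 3.53-fold in KO (2.1 to 5.94) beside 2.9-fold in WT (1.41 to 5.97). The interaction adjusted p of the members lay between 0.692 and 0.961, lowest for *C1qtnf6* and next for *C1qtnf3* (0.715).

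Summed per length over the family, the level in KO was far below WT early and close to it late. The WT libraries summed to 105 to 109, 117 to 137, 109 to 150 and 112 to 115 RPKM in order of stage. The KO libraries summed to 40.2 to 55, 86.2 to 100, 104 to 105 and 103 to 109 RPKM. On this scale the ranges of the genotypes did not overlap at any stage, and the mean of KO was 45.7%, 71.7%, 79.9% and 94.6% of that of WT. *C1qtnf6* made up 54.7 ± 4.27%, 34.3 ± 1.42%, 25.4 ± 1.24% and 22 ± 0.593% of the WT sum at these stages (SD, n = 3). The gap between the genotypes at both late stages depends on the scale. By CPM without length the sum was 316 to 440 in WT and 316 to 318 in KO at gd16.5 and 325 to 335 and 306 to 329 at gd19.5, which overlap. With lengths that leave out bases shared with other genes, a choice made after the data were seen, the RPKM sums were 128 to 178 and 129 to 130 at gd16.5 and 132 to 136 and 126 to 135 at gd19.5, which overlap as well.

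The level of *C1qtnf6* in WT dropped from 58.6 to 24.8 RPKM between gd10.5 and gd19.5, while the summed paralogs were higher at the later stages in both genotypes. Without *C1qtnf6* the sum was 48.6 ± 5.51, 85.2 ± 7.95, 97.9 ± 17 and 87.9 ± 1.44 RPKM in WT and 48.6 ± 7.76, 92.8 ± 6.88, 104 ± 0.495 and 106 ± 3.02 RPKM in KO, in order of stage. The libraries of the genotypes overlapped at the first 3 stages and not at gd19.5, where KO ran from 103 to 109 RPKM and WT from 86.5 to 89.4. The paralogs were 18.53 RPKM higher in KO than in WT there, beside the 24.8 RPKM of *C1qtnf6* in WT, and most of this was *C1qtnf1* (94 against 76.8 RPKM), whose own difference was not called. These sums are a description and carry no test.

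**Figure D3:**
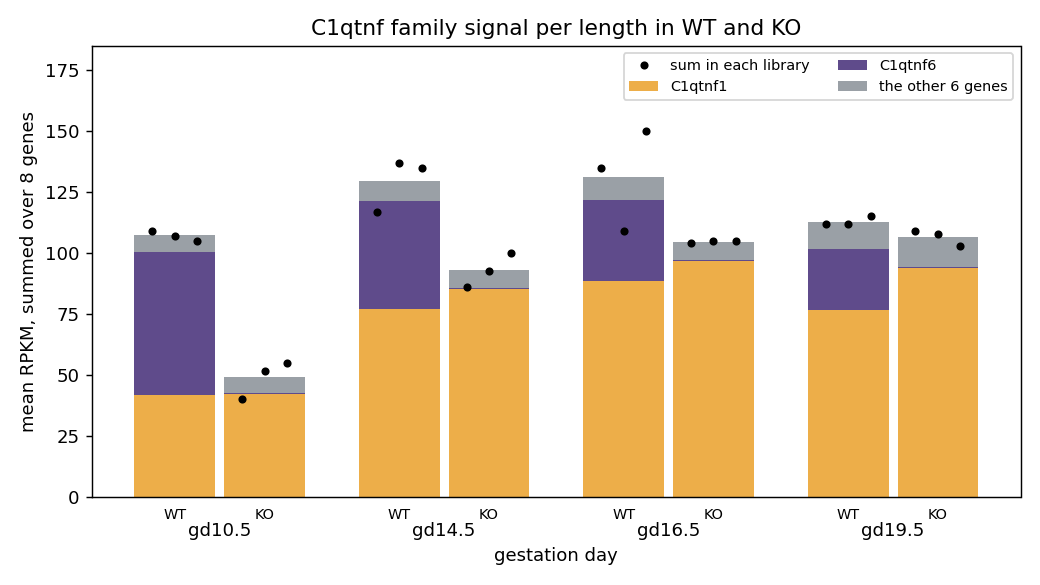
Summed RPKM of the family in each of the 8 groups as bars of group means that start at 0, split into *C1qtnf1*, *C1qtnf6* and the other 6 genes, with 1 point per library for the sum. The KO bars lack the *C1qtnf6* share and reach 49, 93, 105 and 107 RPKM against 107, 130, 131 and 113 RPKM in WT.

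Of 6 protein-coding genes within 100 kb of *C1qtnf6* on chromosome 15, the nearest was higher in KO. *Sstr3*, which encodes a somatostatin receptor, lies 5592 bases from *C1qtnf6* (78537008 to 78544685, minus strand, GRCm38). Its KO libraries had 41, 15 and 44 counts and its WT libraries 13, 19 and 11 at gd10.5, and 11, 18 and 5 against 3, 2 and 1 at gd14.5. The *Sstr3* counts of gd16.5 were 2, 7 and 2 in KO and 1 in each WT library, and those of gd19.5 were 2, 3 and 2 in KO and 1, 1 and 2 in WT. By CPM the KO libraries lay above the WT libraries at gd10.5, gd14.5 and gd16.5 and overlapped them at gd19.5, and every WT library from gd14.5 on had at most 3 counts. Every KO library lay above every WT library for 1.83%, 6.42% and 8.11% of all genes tested at gd10.5, gd14.5 and gd16.5.

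In the additive fit over the 4 stages, *Sstr3* was 2.98-fold higher in KO (log2 fold change 1.57, 95% interval 1.05 to 2.10, edgeR adjusted p = 0.0149). The other two genes called there were *C1qtnf6* and *Zkscan3*. Only gd10.5 passed the expression filter by itself, and there *Sstr3* had a log2 fold change of 1.35 and an edgeR adjusted p of 1. The call held in 24 of 32 alternatives, with an adjusted p between 0.00032 and 0.526. It was lost without the libraries of gd14.5 (0.526), gd16.5 (0.168) or gd19.5 (0.0911), and without WT gd10.5 replicate 1 (0.0569), KO gd10.5 replicate 1 (0.0855), KO gd10.5 replicate 3 (0.0795), WT gd14.5 replicate 1 (0.0535) or WT gd14.5 replicate 2 (0.0501). Without KO gd10.5 replicate 2 the adjusted p of *Sstr3* was 0.00032. The deletion itself is a change of sequence at this place, which cannot be told apart here from a loss of the protein.

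The other neighbours did not pass. *Tmprss6*, a membrane protease that lowers hepcidin, stood at 1.13 ± 0.3 CPM in the WT and 2.15 ± 0.383 CPM in the KO libraries of gd16.5, and at 1.15 ± 0.271 and 2.25 ± 0.942 CPM in those of gd19.5 (SD, n = 3). The KO libraries of *Tmprss6* lay above the WT libraries at both stages, with log2 fold changes of 0.94 and 0.97 (edgeR adjusted p = 0.407 and 0.256). Its call at gd19.5 appeared with no expression filter (adjusted p = 0.0017). *Il2rb*, a receptor chain for interleukins of lymphocytes, was higher in each KO library than in each WT library at gd16.5 and gd19.5, by 0.32 and 0.24 on the log2 scale (edgeR adjusted p = 0.421 and 0.231). Such an order was found for 8.11% and 12.8% of all genes tested at gd16.5 and gd19.5. *Kctd17*, *Rac2* and *Cyth4* were not called at any stage or in the additive fit.

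**Figure D4:**
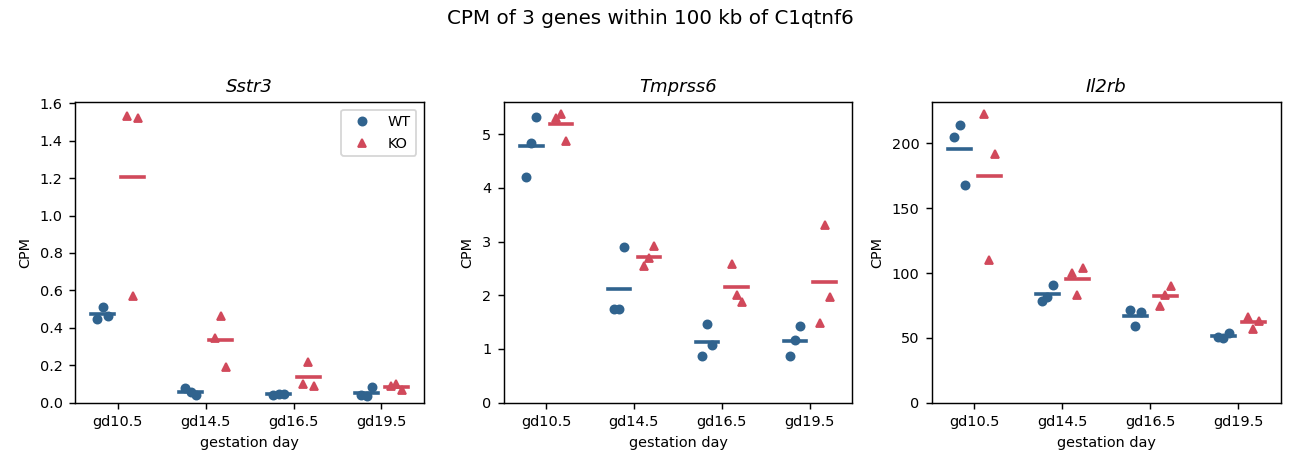
CPM, on a linear axis from 0 that differs between panels, against gestation day for *Sstr3*, *Tmprss6* and *Il2rb*, 3 of the genes within 100 kb of *C1qtnf6*, with 1 point per library (circles WT, triangles KO) and a short line at each group mean. The *Sstr3* points of KO lie above those of WT from gd10.5 to gd16.5, at 0.571 to 1.53 against 0.447 to 0.513 CPM at gd10.5, and the means of all 3 genes are lower at gd14.5 than at gd10.5 in both genotypes.

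Of 22 other genes with a C1q domain, 16 were tested in the WT course and 13 passed the F test, beside 72.5% of all genes. In the contrast of gd19.5 against gd10.5, 4 of the 16 tested were called higher and 7 lower, beside 12027 of all 18523 genes called in either direction. The network collagens *Col8a1* and *Col8a2*, which encode chains of type VIII collagen of basement membranes, rose from 0.155 ± 0.103 to 3.94 ± 0.102 CPM and from 0.271 ± 0.182 to 3.18 ± 0.319 CPM (log2 fold changes 4.60 and 3.58, edgeR adjusted p = 5.53e-08 and 4e-07). The cerebellin *Cbln3* rose by 1.44 and *Otol1*, which encodes an inner ear collagen, went from 0 counts to 29 to 42 counts per library.

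Members of the same list that fell included the synaptic organizers *Cbln1* and *C1ql2*, the endothelial multimerins *Mmrn1* and *Mmrn2*, and *C1qtnf9*. *Cbln1* fell from 1.51 ± 0.455 to 0.17 ± 0.0523 CPM (log2 fold change -3.12, edgeR adjusted p = 6.94e-06) and *C1ql2* from 3.75 ± 1.62 to 0.063 ± 0.0773 CPM. *Mmrn1* and *Mmrn2* changed by -2.59 and -1.73 on the log2 scale, while the summed level of 5 endothelial genes went from 1810 to 1930 CPM to 866 to 1010 CPM. *C1qtnf9*, a further CTRP gene, had 3.63 ± 1.46 CPM at gd10.5 and 0.921 ± 0.178 CPM at gd19.5 (log2 fold change -1.98, edgeR adjusted p = 0.000128). *C1ql4* and *Emilin2* also fell (adjusted p = 0.0177 and 0.0499). *C1qa* and *C1qc*, which encode chains of complement C1q, and *Emilin1* passed the F test but not this contrast. In KO against WT, 0 of the genes tested on this list were called at any stage, and the median log2 fold change over the 4 stages was 0.07 for the 17 genes tested, beside 0.01 for all genes.

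Receptors and partners named for adiponectin, C1q or CTRP proteins were a list of 10, of which 9 were tested and 9 passed the WT F test, beside 72.5% of all genes. The adiponectin receptor gene *Adipor1* rose from 164 ± 10.7 to 264 ± 10.8 CPM between gd10.5 and gd19.5 (log2 fold change 0.70, edgeR adjusted p = 1.32e-06), and *Adipor2* fell from 229 ± 11.6 to 178 ± 10.1 CPM (-0.34, adjusted p = 0.00214). The relaxin receptor gene *Rxfp1*, whose product has also been described as a receptor for CTRP8, rose from 0.502 ± 0.223 to 7.24 ± 0.96 CPM (log2 fold change 3.81, adjusted p = 1.43e-07). *Cdh13*, which encodes T-cadherin, a binding protein for adiponectin, rose by 0.87, the scavenger receptor gene *Lrp1* by 0.72 and *Calr*, which encodes calreticulin, by 0.29. *C1qbp*, a mitochondrial protein that binds C1q heads, changed by -1.41 and *Scarf1* by -0.96. *Cd93* passed the F test but not this contrast. In KO against WT, 0 of the 9 tested genes were called at any stage, and the median over the 4 stages was 0.02.

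Of 12 genes of the alternative pathway of complement, 11 were tested in WT and 7 passed the F test, beside 72.5% of all genes. *C3*, the central component of the cascade, fell from 16.4 ± 8.69 to 6.29 ± 2.34 CPM between gd10.5 and gd19.5 (log2 fold change -1.38, edgeR adjusted p = 0.0367). *Cr1l*, the membrane regulator Crry, rose from 63.8 ± 3.89 to 84.2 ± 2.63 CPM (log2 fold change 0.42, adjusted p = 0.000111), as did *C5ar1*, the receptor for C5a (1.01, adjusted p = 0.00333). In KO against WT, 0 of the tested complement genes were called at any stage or in the additive fit, and the median over the 4 stages was 0.01. Within stages the complement list had a median of -0.21 at gd10.5, with 8 of 11 genes lower in KO, and of 0.52 at gd16.5, with 8 of 11 higher, where the median of all genes was 0.01 at either stage. The summed level of the 12 genes overlapped, at 282 to 472 CPM in KO and 328 to 517 CPM in WT at gd10.5. At gd16.5 it was 230 to 433 CPM in KO and 270 to 302 CPM in WT. All 5 yolk sac endoderm genes were higher in KO at gd10.5 and at gd16.5 (median log2 fold change 1.01 and 2.00). Their part in the complement medians was not tested. Among the lists of cell type markers, 1 gene was called in KO, the mesothelial gene *Lrrn4*, higher at gd19.5 (log2 fold change 0.87, edgeR adjusted p = 0.0153). Some marker sums separated the genotypes without a called gene. At gd16.5 the sum of 6 NK cell genes was 7.73 to 12.5 CPM in KO and 21.8 to 39.5 CPM in WT, with 2 genes tested. The spongiotrophoblast and glycogen cell sum went the other way, at 57000 to 61300 CPM in KO and 36300 to 47700 CPM in WT. At the same stage the giant cell sum was also higher in KO without overlap. The labyrinth trophoblast, fibroblast, smooth muscle and adipocyte sums were lower in KO without overlap. Of 17071 genes tested at gd16.5, 1384 had every KO library above every WT library and 1643 every KO library below. The part of cell makeup in these differences was not tested.

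Genes with a WT course most like that of a member were named by Pearson's r of log2 CPM over the 12 WT libraries, among the protein-coding genes with a mean log2 CPM of at least 1. For *C1qtnf6* they were *Sqle* (r = 0.994), a squalene epoxidase of sterol synthesis, *Eif2b2* (0.993) and the heme oxygenase gene *Hmox1* (0.984). For *C1qtnf1* they were *Irgq* (0.977), *Ppp1r15a* (0.976) and *Siae* (0.975). For *C1qtnf3* they were *Zbtb43* (0.991), the neprilysin gene *Mme* (0.989) and *Elac1* (0.988), and for *C1qtnf7* *Tcf24* (0.990), *Plxnb2* (0.986) and *Atg13* (0.986). The members without a called F test had lower best values, with *Lysmd1*, *Wdr47* and *Vps35l* (0.887 to 0.859) for *C1qtnf4*, *Far2*, *Trmt2a* and *Cpsf6* (0.871 to 0.845) for *C1qtnf12*, and *F13a1*, *Tmem234* and *Srsf5* (0.776 to 0.721) for *C1qtnf2*. Between members, r was -0.904 for *C1qtnf6* with *C1qtnf7*, 0.922 for *C1qtnf1* with *C1qtnf3* and 0.895 for *C1qtnf3* with *C1qtnf7*. The points fall into 4 stages of 3 libraries and share their library sizes, so these values describe shared stage courses and carry no p.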

How the data were processed

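MFI RNA of 24 libraries, in 8 groups of 3, was made into TruSeq stranded mRNA libraries and sequenced as paired reads. The authors deposited raw gene counts, whole numbers with no normalization. Per the submitters' processing notes and the study's methods, reads were trimmed with Trim Galore 0.6.4, aligned to GRCm38 with STAR 2.7.3a and counted with featureCounts of Subread 2.0.0 at default settings. The defaults ignore strand and drop reads with several alignments or on several genes, which lowers genes with overlapping neighbours or close copies. Positions are those of the deposited table; 54784 of its 55401 genes matched GENCODE M21 in chromosome, start, end and strand.

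Genotype and stage were taken from the labels, and replicate numbers from the sample descriptions, since KO titles number the libraries differently. The members and gene lists were chosen with earlier results of these data known. Named genes are the 8 members, genes overlapping them, protein-coding genes within 100 kb of *C1qtnf6*, for each member the 3 protein-coding genes with mean log2 CPM of at least 1 and the highest r in WT, members of the lists called in KO, and those of the C1q-domain and receptor lists called in the WT F test. *Zkscan3*, the complement genes and members of the C1q-domain list called in a single contrast were chosen after seeing their values. Marker lists covered trophoblast giant cell, spongiotrophoblast and glycogen cell, labyrinth trophoblast, decidual stroma, fibroblast, smooth muscle, endothelium, adipocyte, mesothelium, yolk sac endoderm, NK cell, retinal pigment epithelium, neuron and skeletal muscle, and the Y-linked genes. Of the marker lists, *Lrrn4* was the only gene called in KO against WT.

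KO was compared with WT at each stage (6 libraries), over all stages with stage as a covariate (24), and by the genotype-by-stage interaction; stage was tested within WT (12) and KO (12). All used the quasi-likelihood test of edgeR 4.0.16 in R 4.3.3 with its expression filter (at least 10 counts, in total 15) and TMM normalization, with Benjamini-Hochberg adjustment over all genes tested and a call at 0.05. Fold changes are unshrunk, with 95% intervals. RPKM were computed here from CPM and exon length, log2 CPM used a prior count of 2, and 3 counts were the detection limit, 0.0773 to 0.149 CPM depending on the library. Total counts were 20975717 to 37383108 per library, and limits by counting cover counting error only. The alternatives were RLE size factors, total-count scaling, no or a stricter expression filter, DESeq2 1.42.0, limma 3.58.1 voom with quality weights, a fit of all 24 libraries, a Y-linked covariate, the replicate number as a block, a log2 fold limit of 1, each library and each stage left out, and, for the family sum, lengths without overlapped bases, which was chosen after seeing the data. The steps were tested on simulated counts. RefSeq promoter sequences were matched by symbol for 4 of the 8 members.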

Additional observations from a re-analysis of the deposited data

How the results depend on the processing

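No called direction reversed. Of 2897 values of members and neighbours recomputed under the alternatives, 84 had the opposite sign and 0 of those carried a call on either side. Paralogs called in KO at gd19.5 went from 0 to 1 (*C1qtnf1*) with no expression filter and with DESeq2 on the 6 libraries, and were 0 with each library left out. The log2 fold change of *C1qtnf6* at gd16.5 ranged from -7.37 to -6.02 when each library was left out, and was not called in 3 of those fits (-6.54, -6.39 and -6.25).

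Requiring 10 counts in every library removes *C1qtnf3*, *C1qtnf4* and *C1qtnf7* from the stage courses, so members called fell from 4 to 2 (gd14.5 against gd10.5), 2 to 1 (gd16.5 against gd14.5), 5 to 2 (gd19.5 against gd10.5) and 4 to 2 (F test) in WT, and from 3 to 1 (gd14.5 against gd10.5), 4 to 1 (gd19.5 against gd10.5) and 4 to 1 (F test) in KO. With a log2 fold limit of 1 the successive WT steps had 2, 1 and 0 members called in place of 4, 2 and 1. With all 24 libraries in the fit, the steps to gd16.5 and to gd19.5 in WT had 1 and 0. The last WT step ranged from 0 to 1 with libraries left out. The last KO step went from 0 to 1 (*C1qtnf3*) with all 24 libraries, total-count scaling, no filter or DESeq2. It also went from 0 to 1 without KO gd10.5 replicate 2 or without KO gd10.5 replicate 3. The cause of these shifts, other than the removal of genes by a filter or a limit, was not tested.

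The share of *C1qtnf6* in the WT family sum was 34.3%, 25.4% and 22% at gd14.5, gd16.5 and gd19.5, became 32%, 23.4% and 20.4% by CPM without length, and 30.7%, 22.4% and 19.4% with lengths that leave out overlapped bases.

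The labels do not say whether replicate numbers pair the libraries. The deviations of same-numbered WT and KO libraries had correlations between -0.471 and 0.411 in 12 pairs, 4 of them over 0.1. Of the 12 WT libraries, 6 correlated best with their own number. At gd19.5 each WT library did so, at r of 0.093, 0.039 and 0.108. These correlations do not settle whether the libraries are paired. With the replicate block 0 paralogs were called at every stage, *C1qtnf1* at gd19.5 kept a difference of 0.26 on the log2 scale (edgeR adjusted p = 0.122) and *Sstr3* over all stages an adjusted p of 0.0408, and none of the 158 results fitted with the block changed its call (0). Depth limits *C1qtnf3*, *C1qtnf4* and *C1qtnf7* at gd10.5 and *Sstr3* from gd14.5 on, where most libraries hold few counts.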
